A study of Gallus gallus with 6 samples.

Results

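GBX2 and 7 transcription factors of the neural crest (TWIST1, TFAP2A, SOX9, SNAI2, MSX1, MSX2 and ETS1) were followed in whole chick embryo hearts at Hamburger-Hamilton stage (HH) 29. They were found by gene name among the 6919 deposited transcript rows. Of the 8 genes, 7 had a row, with 1 transcript each, and SNAI2 had none under its name and was not analysed here. The tested hearts came from 3 embryos whose outflow tract (OFT), the vessel leaving the embryonic heart, had been tied with a nylon suture at HH21 (OFT-banded), and from 3 embryos in which the suture was passed and taken out at once (sham). All were Dekalb white chick embryos, RNA was taken from 1 heart per library after globin depletion and polyA selection, and no agent or mutation was used. The labels give heart as the tissue of every library and outflow tract as the sample type of the banded ones, whereas the study's methods describe RNA from whole hearts. The labels do not give the sex of the embryos.

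Neural crest cells arise at the edge of the neural plate, lose contact with the epithelium and migrate. Those of the cardiac crest pass through the pharyngeal arches and reach the outflow tract, where they take part in its septation, in the smooth muscle of the great arteries and in the cardiac ganglia. They are specified in steps: signals such as BMP, WNT and FGF switch on border factors (MSX1, MSX2, TFAP2A, GBX2), which are followed by specifiers (SNAI2, SOX9, ETS1, TWIST1, SOX10, FOXD3). Most of these genes also act in heart cells of other origin: TWIST1, SOX9 and the MSX genes in the mesenchyme of the cushions that form valves, and ETS1 in endothelium. In RNA from a whole heart, fewer cells of a type and less RNA per cell cannot be told apart.

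Levels are in RPKM, that is reads for each kilobase of a transcript in a library of 1000000 reads, so those of different genes can be set side by side. Library depth, worked out from how far apart the low values of microRNA rows stood, was 30.1, 41.2 and 36 times 1000000 reads in OFT-banded hearts 6, 11 and 17, and 32.4, 37.5 and 21.1 in sham hearts 38, 48 and 42. For the comparison of the groups, limma was run on log2(RPKM + 1), a scale that understates the change of low genes, and took in the 4726 transcripts whose mean reached 1 RPKM, 6 of the 7 factors among them. Permutation tests of single values were exact and two-sided, and the smallest p that 3 hearts in each group allow is 0.1. Nothing in the labels names litters or collection days, and the p-values measure the spread between these hearts. No transcript had an adjusted p under 0.05 (0% of those tested), and 8.57% had an unadjusted p under 0.05, 3.28% higher and 5.29% lower in OFT-banded hearts. Higher transcripts made up 38.3% of these calls, and 56.9% of the calls made anew after median-ratio scaling between hearts. As a check of the tissue, ACTC1, cardiac alpha-actin, was at 14007 to 19029 RPKM in OFT-banded hearts and 12174 to 14507 RPKM in sham hearts. Not every marker was seen: ATP2A2, of the same cardiomyocyte list, did not exceed 0.63 RPKM in any of its rows. The cause of this was not tested.

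GBX2 (gastrulation brain homeobox 2, NM_205068), a homeobox gene best known for setting the boundary between midbrain and hindbrain and, in frog and mouse, for acting at the neural plate border and in the pharyngeal ectoderm that cardiac crest cells pass, stood at 51.73, 41.85 and 61.97 RPKM in OFT-banded hearts 6, 11 and 17, against 24.36, 28.25 and 17.27 RPKM in sham hearts 38, 48 and 42. The groups did not overlap, and the lowest banded heart was well above the highest sham heart. The means were 51.9 ± 10.1 RPKM in OFT-banded hearts and 23.3 ± 5.57 RPKM in sham hearts (SD, n = 3 each), a ratio of 2.23. The log2 fold change was 1.13 (standard error 0.21, 95% interval 0.64 to 1.62, unadjusted p = 0.000909 and adjusted p = 0.543 from limma). GBX2 had the sixth smallest p of the 4726 transcripts and the sixth highest log2 fold change, and it did not pass the adjusted threshold. The study chose GBX2 for its difference between these same hearts, so its fold change is a description and not independent evidence. Of the 1573 tested transcripts with a mean level within a factor of 2 of that of GBX2, 2, GBX2 included, had a log2 fold change at least as high, and the 5% and 95% quantiles of the 1573 were -0.41 and 0.25. In either direction, 7 of the 1573, GBX2 included, had a change at least as large.

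**Figure D1:**
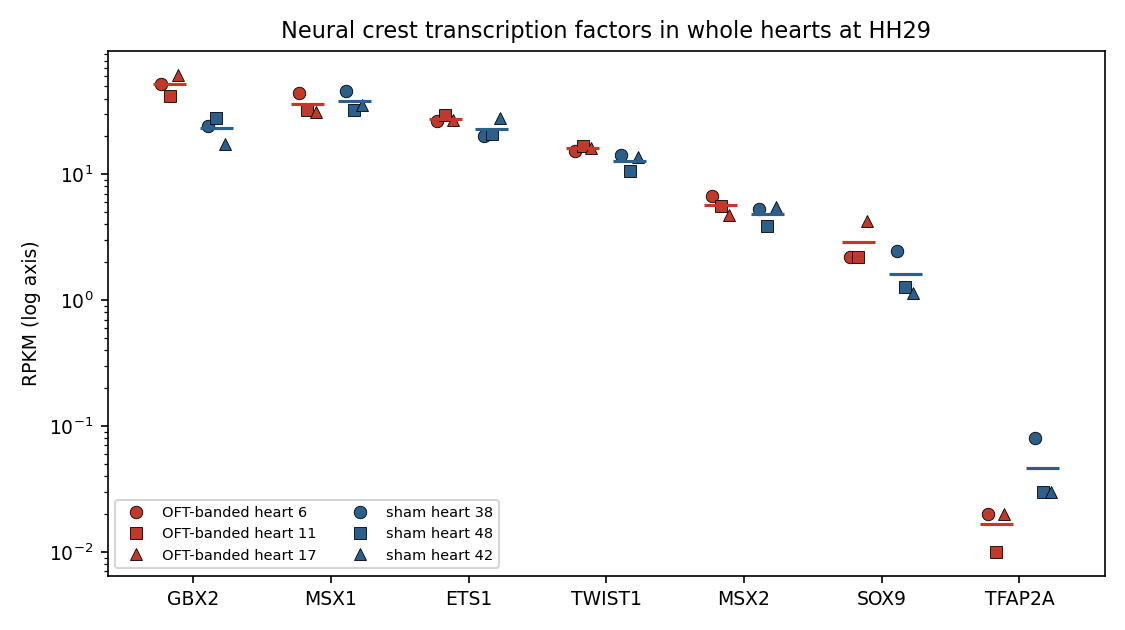
RPKM on a log axis of the 7 factors in each heart, OFT-banded (red) left of sham (blue), with a bar at the group mean. Shapes only tell hearts apart. In GBX2 the 3 banded hearts lie between 41.85 and 61.97 RPKM, above all 3 sham hearts, while the groups overlap in MSX1, ETS1, MSX2 and SOX9.

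The spread of GBX2 between hearts was wider than counting error. Its coefficient of variation was 19.4% in OFT-banded and 23.9% in sham hearts, against medians of 12% and 11.4% over all tested transcripts. At the estimated depth, 1 kilobase of the transcript held between 1557 and 2231 reads in OFT-banded hearts and between 364 and 1059 reads in sham hearts, a counting error of 2.12% to 2.53% and 3.07% to 5.24%. Sham heart 42, the lowest in GBX2, was also the shallowest library. These errors cover counting only.

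TWIST1 (NM_204739), a basic helix-loop-helix factor of crest and cushion mesenchyme that drives the loss of epithelial character, was the only other tested factor with no overlap between groups. It stood at 15.39, 16.86 and 16.18 RPKM in OFT-banded hearts 6, 11 and 17, against 14.13, 10.65 and 13.75 RPKM in sham hearts 38, 48 and 42. In banded heart 6 and sham heart 38, the closest pair across the groups, the counting error for 1 kilobase was 4.65% and 4.67%. The means were 16.1 ± 0.736 RPKM in OFT-banded hearts and 12.8 ± 1.91 RPKM in sham hearts (SD, n = 3 each), and the log2 fold change was 0.32 (standard error 0.14, 95% interval -0.004 to 0.64, unadjusted p = 0.0523 and adjusted p = 0.543 from limma). Without sham heart 48, the lowest, the log2 fold change was 0.20, a change of over 1.5 times. GBX2 and TWIST1 make 2 of the 6 tested factors (33.3%) that were separate (no overlap between the hearts of the 2 groups) and higher in OFT-banded hearts, beside 5.23% of all tested transcripts. GBX2 was known to do so when the genes were chosen.

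ETS1 (NM_205298), a factor with an ETS domain that marks cranial and cardiac crest in the chick and is also expressed in endothelium, was at 26.44, 29.46 and 27.19 RPKM in OFT-banded hearts 6, 11 and 17, against 20.02, 21.03 and 28.14 RPKM in sham hearts 38, 48 and 42. Sham heart 42 alone lay within the range of the banded hearts. The log2 fold change was 0.27 (standard error 0.14, 95% interval -0.07 to 0.61, adjusted p = 0.547 from limma), and the means were 27.7 ± 1.57 RPKM in OFT-banded hearts and 23.1 ± 4.43 RPKM in sham hearts (SD, n = 3 each). Without sham heart 42 the log2 fold change was 0.41, and without sham heart 38 it was 0.18. After median-ratio scaling between hearts the groups of ETS1 no longer overlapped, with means of 28.2 in OFT-banded and 22.4 in sham hearts (p = 0.1 by the exact test), and the adjusted p was 0.569 from limma.

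SOX9 (NM_204281), an HMG box factor that acts in crest survival and, in mesenchyme, drives cartilage and valve matrix genes, was low in every heart. It stood at 2.21, 2.19 and 4.23 RPKM in OFT-banded hearts 6, 11 and 17, against 2.44, 1.28 and 1.13 RPKM in sham hearts 38, 48 and 42. Banded heart 17 was highest, and sham heart 38 lay above the other 2 banded hearts. The log2 fold change was 0.56 (standard error 0.29, 95% interval -0.12 to 1.24, adjusted p = 0.543 from limma). This interval holds both 0 and a change as large as that of GBX2. In sham heart 42, 1 kilobase of SOX9 held 23.8 reads, a counting error of 20.5%. Without banded heart 17 the log2 fold change was 0.32, and with a pseudocount of 0.1 in place of 1 it was 0.80.

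The MSX genes, homeobox repressors that respond to BMP at the neural plate border and in the outflow cushions, overlapped between groups. MSX1 (NM_205488) was at 43.98, 32.61 and 31.50 RPKM in OFT-banded hearts 6, 11 and 17, against 45.90, 32.65 and 35.34 RPKM in sham hearts 38, 48 and 42. It was high in banded heart 6 and sham heart 38 and lower in the other 4, with a log2 fold change of -0.07 (standard error 0.17, 95% interval -0.48 to 0.34, adjusted p = 0.867 from limma). The direction of MSX1 turned to 0.012 without banded heart 17 and to 0.067 without sham heart 38. MSX2 (NM_204559) was at 6.75, 5.61 and 4.76 RPKM in OFT-banded hearts 6, 11 and 17, against 5.28, 3.89 and 5.47 RPKM in sham hearts 38, 48 and 42, a log2 fold change of 0.19 (standard error 0.19, 95% interval -0.25 to 0.63, adjusted p = 0.682 from limma). Without sham heart 48 this value was 0.063, without banded heart 6 it was 0.081, and without banded heart 17 it was 0.29. In both MSX genes OFT-banded heart 6 was the highest of the banded hearts.

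TFAP2A (NM_205094), an AP-2 factor of the neural plate border, ectoderm and early crest, was listed between 0.01 and 0.02 RPKM in OFT-banded hearts and between 0.03 and 0.08 RPKM in sham hearts. At most 2.59 reads fell on 1 kilobase of the transcript in any heart, under the floor of 3 reads, so no fold is given. TFAP2A did not pass the filter, and a difference between groups was not detectable at this depth although the listed values did not overlap.

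**Figure D2:**
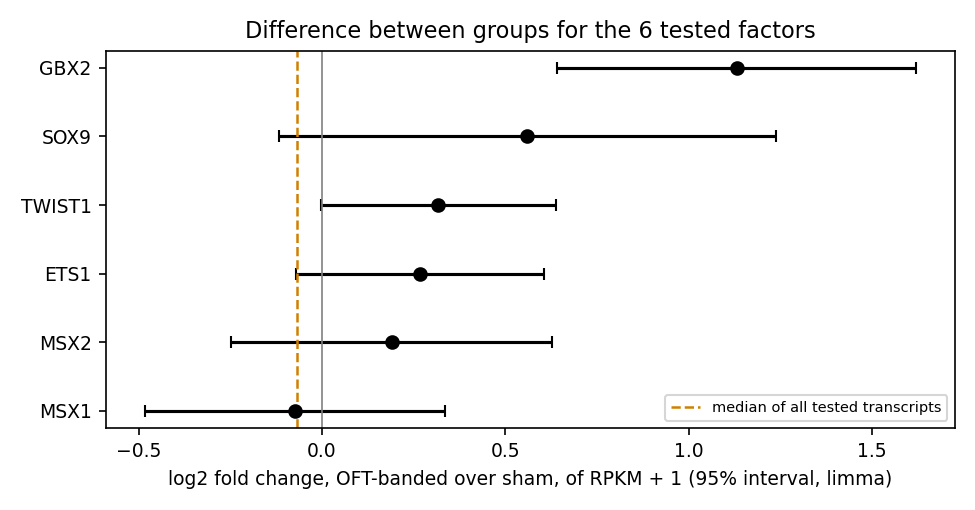
Log2 fold changes (OFT-banded over sham, RPKM + 1) of the 6 tested factors, as points with 95% intervals from limma. The dashed line marks the median of all tested transcripts, -0.07. The interval of GBX2 runs from 0.64 to 1.62, and those of the other 5 factors include 0.

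By value, 5 of the 6 tested factors were higher and 1 was lower in OFT-banded hearts, and of all tested transcripts 36.8% were higher. With median-ratio scaling the same count held for the factors, and 48.8% of all transcripts were higher. Their median log2 fold change was 0.29, beside -0.07 over all tested transcripts. In the limma fit none had an adjusted p under 0.05, and GBX2 alone had an unadjusted p under 0.05, on the side that held 3.28% of all tested transcripts.

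Since a ratio within a heart hardly depends on the scaling between hearts, GBX2 was also set against the other 5 tested factors. On log2(RPKM + 1), GBX2 exceeded their mean by 1.93, 1.71 and 2.21 in OFT-banded hearts 6, 11 and 17, against 1.00, 1.56 and 0.65 in sham hearts 38, 48 and 42. The groups did not overlap, and the ratio was on average 0.88 higher in OFT-banded hearts (exact p = 0.1). With a single factor as the denominator the difference was 1.21 for MSX1, 0.94 for MSX2, 0.86 for ETS1, 0.81 for TWIST1 and 0.57 for SOX9. Against TWIST1 and SOX9 the groups overlapped through sham heart 48 (exact p = 0.2 for both). With a pseudocount of 0.1, the difference against SOX9 was 0.36 (exact p = 0.4). These 6 ratios share GBX2 and were not adjusted for their number, and GBX2 is in each of them by choice.

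**Figure D3:**
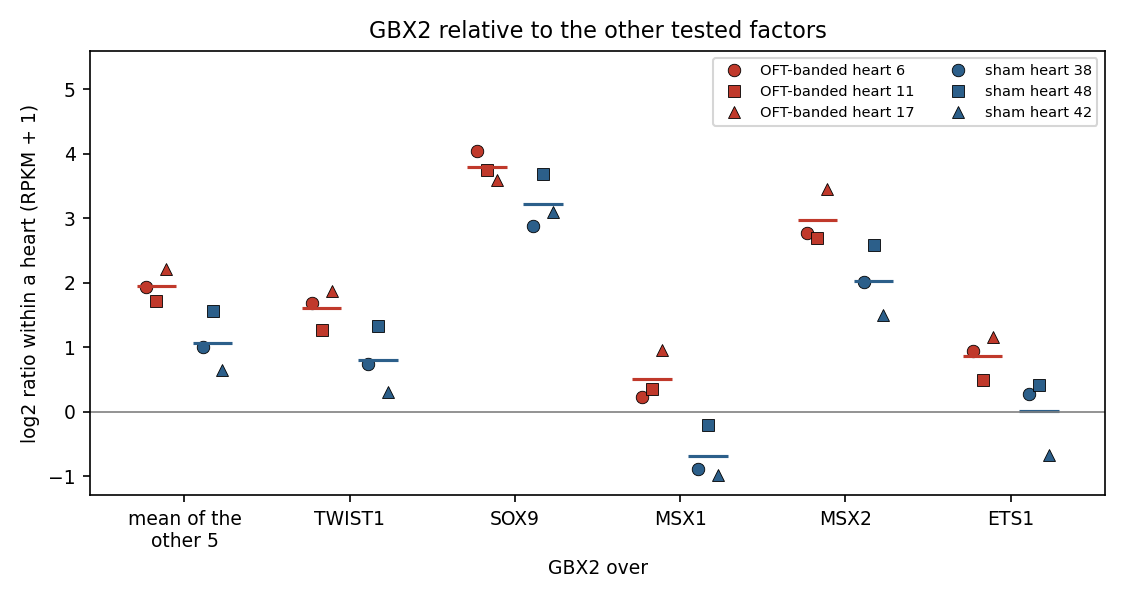
Log2 ratio of GBX2 to the mean of the other 5 tested factors and to each of them, within each heart (RPKM + 1), OFT-banded (red) left of sham (blue), bars at group means. Against the mean of the 5 the banded hearts lie between 1.71 and 2.21 and the sham hearts between 0.65 and 1.56.

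The order of levels differed between the groups at its top. In OFT-banded hearts it ran from GBX2 to MSX1, ETS1, TWIST1, MSX2, SOX9 and TFAP2A, and GBX2 exceeded MSX1 in all 3 hearts although their ranges overlapped. In sham hearts MSX1 came first, apart from GBX2, while GBX2 and ETS1 had means of 23.3 and 23.1 RPKM and GBX2 was above ETS1 in 2 of 3 hearts. The places below ETS1 were the same in both groups, with no overlap between neighbours within a group. GBX2 took 35.3%, 32.5% and 42.5% of the summed RPKM of the 7 rows in OFT-banded hearts 6, 11 and 17, against 21.7%, 28.9% and 17.1% in sham hearts 38, 48 and 42. Among all tested transcripts, GBX2 lay between the percentiles 60.2 and 69.8 in banded hearts and 35.2 and 49.4 in sham hearts, and SOX9 lay between 1.90 and 13.6 in all 6.

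To compare whole profiles, each transcript's log2(RPKM + 1) was taken as deviations from its own mean over the 6 hearts, and the root mean square difference between 2 profiles was used as their distance, with no test. A distance grows with the size of the deviations, and that of a factor from a flat profile was 0.62 on the log2 scale for GBX2, 0.43 for SOX9 and 0.20 to 0.21 for the other 4. SOX9 was the factor closest to GBX2, at 0.39, the 60th nearest of all tested transcripts, followed by TWIST1 at 0.53, while MSX1 at 0.69 was farther from GBX2 than a flat profile was. TWIST1 was 0.16 from MSX2 and from ETS1. MSX1 was 0.19 from MSX2, and MSX2 and ETS1 were 0.21 apart, about as far as each was from a flat profile, so these pairs were not close. The 5 transcripts nearest to GBX2 were MIR1773 (0.17), a microRNA locus, KCNMB4 (0.22), a subunit of calcium-activated potassium channels, PVALB (0.27), the calcium-binding parvalbumin, KRT20 (0.27), a keratin, and HOPX (0.28), an atypical homeodomain factor of the heart that does not bind DNA. All 5 were separate and higher in OFT-banded hearts, beside 5.23% of all tested transcripts. They were chosen for nearness to GBX2, which is itself separate, so their separation adds no support. MIR1773 stood at 62.68, 47.94 and 71.84 RPKM in OFT-banded hearts 6, 11 and 17, against 38.30, 33.47 and 24.90 RPKM in sham hearts 38, 48 and 42, and HOPX at 26.39, 30.91 and 35.43 RPKM in the same OFT-banded hearts, against 22.46, 22.64 and 12.83 RPKM in the sham hearts. With a pseudocount of 0.1, 3 of these 5 transcripts were again among the nearest 5.

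The nearest transcripts to TWIST1 were MCM6 (0.04), which licenses DNA replication, IL1RL1 (0.05) and PIK3AP1 (0.07). All had no overlap between groups, like TWIST1 itself, and the choice by nearness made this likely. Those nearest to ETS1 were PDHX (0.06), BAIAP2L1 (0.08) and CDH11 (0.08), a cadherin of mesenchyme, and those nearest to SOX9 were SCG5 (0.13), NRG1 (0.19) and SLMO1 (0.19). MSX1 lay nearest to C11orf31, PSMG3 and FTSJ2 (0.05 to 0.06), and MSX2 to CDC20, TESC and MPZL2 (0.05 to 0.06). Over 6 hearts many of the 4726 profiles lay close to each other, and a flat profile was farther from GBX2 than 1367 transcripts were.

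Near relatives of the factors give the levels of genes whose reads are close in sequence or whose roles overlap. TWIST2 was at 16.76, 15.15 and 13.92 RPKM in OFT-banded hearts 6, 11 and 17, against 14.65, 11.11 and 14.01 RPKM in sham hearts 38, 48 and 42, above TWIST1 in 4 of 6 hearts, with a log2 fold change of 0.20 (adjusted p = 0.617 from limma). Only uniquely aligned reads were counted, so stretches shared by TWIST1 and TWIST2 may be missing from both. SNAI1, the other snail repressor of epithelial genes, was at 36.5 ± 8.02 RPKM in OFT-banded hearts and 41.6 ± 4.27 RPKM in sham hearts (SD, n = 3 each), and SOX8, which shares its group with SOX9 and SOX10, at 5.53 ± 1.11 and 5.52 ± 1.64 RPKM (OFT-banded and sham hearts, SD, n = 3 each). ETS2, the closest relative of ETS1, was at 16.6 ± 4.41 RPKM in OFT-banded hearts and 19.7 ± 5.09 RPKM in sham hearts (SD, n = 3 each; log2 fold change -0.24, adjusted p = 0.709 from limma). Among the ETS factors of endothelium, FLI1 was at 34.59 to 39.57 RPKM in OFT-banded hearts and 35.05 to 40.46 RPKM in sham hearts, and ERG at 3.70 to 8.26 RPKM and 4.64 to 7.30 RPKM (OFT-banded and sham hearts). The log2 fold changes of FLI1 and ERG were -0.01 and -0.09 (adjusted p = 0.959 and 0.894 from limma), beside 0.27 for ETS1. ELK3, a further ETS factor of the endothelial list, was separate and higher, as were 5.23% of all tested transcripts. It was at 61.50 to 67.73 RPKM in OFT-banded hearts and 56.12 to 59.03 RPKM in sham hearts (log2 fold change 0.16, adjusted p = 0.543 from limma). TFAP2B did not exceed 0.02 RPKM, and TFAP2D was listed at 0 in all hearts.

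Several genes that mark early or migrating crest cells were at or near 0, while others of the same lists that other cells also express were not, such as SNAI1, MYC at 29.05 to 36.45 RPKM and EDNRB, an endothelin receptor, at 101.35 to 144.59 RPKM over the 6 hearts. Of the 12 border and early factors found, 4 had a mean of at least 1 RPKM, and of the 15 specifiers and partners 13 did. The name neural crest is therefore used here for the known role of the factors and not for the cells that held their RNA. FOXD3 had no row under this name and was not analysed here. SOX10, which marks migrating crest and glia, was at 0.08, 0.28 and 0.17 RPKM in OFT-banded hearts 6, 11 and 17, against 0, 0.03 and 0 RPKM in sham hearts 38, 48 and 42. The groups were separate (exact p = 0.1), at 2.41 to 11.5 reads on 1 kilobase in banded hearts and 0 to 1.13 in sham hearts. SOX10 is below the filter, and 4 of the 6 values are under the floor of 3 reads, so no fold is given. PAX3 did not exceed 0.26 RPKM and PAX7 0.14 RPKM, ZIC1 was listed at 0 throughout, and for all 3 the groups overlapped. By contrast, ERBB3, a receptor of crest and glia that the cushions also express, was at 30.97 to 39.26 RPKM in OFT-banded hearts and 37.55 to 45.46 RPKM in sham hearts.

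**Figure D4:**
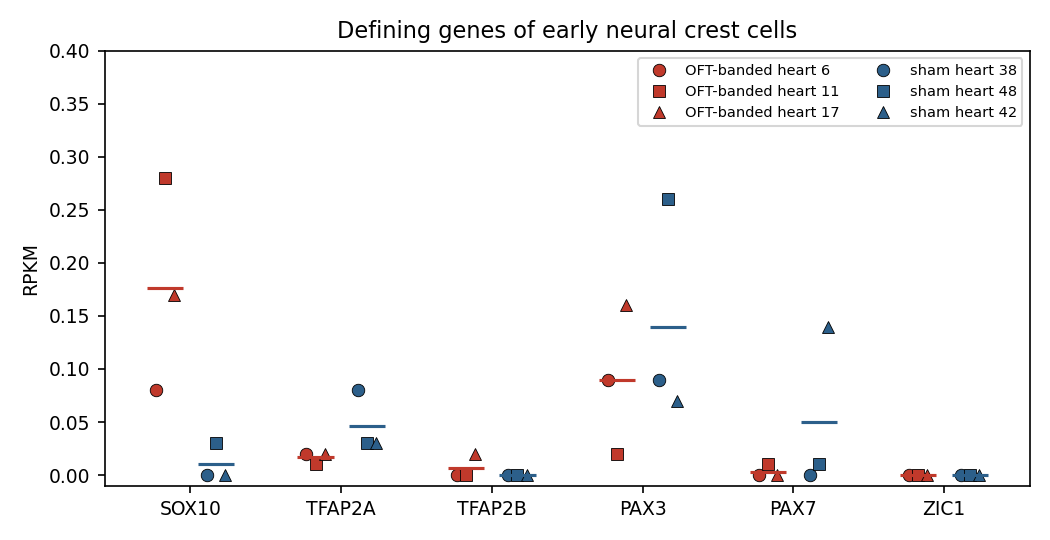
RPKM of 6 genes of the neural plate border and early or migrating crest, chosen among those with a mean under 1 RPKM, in each heart, OFT-banded (red) left of sham (blue), bars at group means. No value exceeds 0.28 RPKM. SOX10 lies between 0.08 and 0.28 in banded hearts and between 0 and 0.03 in sham hearts.

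The other genes of crest specification went in both directions. Of 18 specifiers and partners, 13 were tested, of which 7 were higher and 6 lower by value in OFT-banded hearts. Among all tested transcripts 36.8% were higher. On the TPM scale 5 of the 13 were higher and 8 lower, beside 31% higher among all. After median-ratio scaling 8 were higher and 5 lower, beside 48.8% higher among all. None of the 13 was separate between groups. The highest were the BMP-responsive inhibitors ID2, at 355 ± 57.8 RPKM in OFT-banded hearts and 367 ± 24.8 RPKM in sham hearts, and ID1, at 249.8 ± 47.1 RPKM in OFT-banded hearts and 205 ± 25.6 RPKM in sham hearts (SD, n = 3 each). Of 17 border and early factors, 4 were tested, with GATA3 and MYCN separate and lower. MYCN, a growth regulator, was at 22.67, 30.98 and 29.45 RPKM in OFT-banded hearts 6, 11 and 17, against 33.26, 32.73 and 37.43 RPKM in sham hearts 38, 48 and 42 (log2 fold change -0.32, adjusted p = 0.543 from limma). Separate and lower transcripts made up 11% of all tested.

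Of 27 genes of crest migration and guidance, 20 were tested, 4 of them higher and 16 lower by value, beside 63.2% lower among all tested transcripts. After median-ratio scaling 7 were higher and 13 lower, beside 51.2% lower among all. The gene-span trend is the drift of a heart's values with the length of the gene in the genome. With it removed 50.3% of all transcripts were lower, and this list was not counted under that setting. Some of its genes, though not all, were low in banded heart 6 and sham heart 38 alike. PDGFRA was at 0.83 and 1.92 RPKM there, against 5.47 to 12.03 RPKM in the other hearts. NRP2 was at 0.69 and 1.06 RPKM, against 3.05 to 4.11 RPKM. Some genes of other lists showed the same pattern, such as TBX20, at 7.93 and 9.28 RPKM there, against 16.45 to 29.87 RPKM in the other hearts. The study attributes the lower integrity of the sequenced RNA to freeze-thaws and globin depletion. Whether RNA integrity had a part in this pattern was not tested, nor was the part of the pattern in the counts. The median log2 fold change of these 20 genes was -0.19, and none had an adjusted p under 0.05. Of the 20, 1 was separate and higher and 1 separate and lower. Among all tested transcripts 5.23% were separate and higher and 11% separate and lower, so these counts do not stand out. RHOB, a small GTPase of the cytoskeleton, was the separate gene that was higher, at 107.07, 118.17 and 118.40 RPKM in OFT-banded hearts 6, 11 and 17, against 103.98, 83.10 and 89.29 RPKM in sham hearts 38, 48 and 42 (log2 fold change 0.32, adjusted p = 0.543 from limma). EDNRA, the endothelin receptor of crest mesenchyme, was the separate gene that was lower, at 79.92, 97.81 and 94.30 RPKM in OFT-banded hearts 6, 11 and 17, against 98.56, 122.83 and 115.97 RPKM in sham hearts 38, 48 and 42 (log2 fold change -0.31, adjusted p = 0.543 from limma).

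Around GBX2, 8 of 21 FGF and patterning genes were tested. OTX2, the partner of GBX2 at the boundary between midbrain and hindbrain, and PAX5 were listed at 0 in all hearts, EN2 did so in all hearts but sham heart 42, and FGF8 did not exceed 0.05 RPKM. Of the tested genes 4 were higher and 4 lower by value, beside 36.8% higher among all tested transcripts. Separate and lower transcripts made up 11% of all tested, and separate and higher ones 5.23%. FGFR1, a receptor of FGF signals, was at 43.74, 48.82 and 50.31 RPKM in OFT-banded hearts 6, 11 and 17, against 52.57, 57.92 and 58.23 RPKM in sham hearts 38, 48 and 42 (log2 fold change -0.24, adjusted p = 0.543 from limma), and FGFR3 was separate and lower too. SPRY2, a feedback inhibitor of the same pathway, was separate and higher, at 27.2 ± 3.76 RPKM in OFT-banded hearts and 23.2 ± 0.505 RPKM in sham hearts (SD, n = 3 each).

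For the MSX genes, 17 of 21 genes of BMP signalling were tested, 8 of them higher and 9 lower by value (10 and 7 after median-ratio scaling), with a median log2 fold change of -0.03. Among all tested transcripts 36.8% were higher (48.8% after median-ratio scaling), with a median of -0.07. Separate and lower transcripts made up 11% of all tested, and separate and higher ones 5.23%. CHRD, an antagonist of BMP, was the separate gene, though not after median-ratio scaling, at 4.34 ± 0.202 RPKM in OFT-banded hearts and 5.08 ± 0.430 RPKM in sham hearts (SD, n = 3 each; limma, adjusted p = 0.629). After median-ratio scaling 2 of the 17 genes were separate and higher and 0 separate and lower. The share of all transcripts that were separate under that scaling is not given here. SMAD6, an inhibitor of BMP signals, was at 257 ± 7.96 RPKM in OFT-banded hearts and 242 ± 21.4 RPKM in sham hearts (SD, n = 3 each). Of 18 outflow tract and second heart field genes, 10 were tested, 2 higher and 8 lower (4 and 6 after median-ratio scaling). Among all tested transcripts 63.2% were lower (51.2% after median-ratio scaling). TBX3, a repressor of the conduction system and outflow tract, was separate and higher, at 10.31, 9.06 and 8.25 RPKM in OFT-banded hearts 6, 11 and 17, against 5.64, 7.27 and 7.56 RPKM in sham hearts 38, 48 and 42 (log2 fold change 0.39, adjusted p = 0.543 from limma).

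Downstream of SOX9, 7 of 12 cartilage genes were tested, 5 higher and 2 lower by value, with a median log2 fold change of 0.33. Among all tested transcripts 36.8% were higher and the median was -0.07. The same count held after median-ratio scaling, beside 48.8% higher among all. COL9A2 and SNORC, a proteoglycan of cartilage, were separate and higher, as were 5.23% of all tested transcripts. SNORC was under 1 RPKM in every sham heart and passed the filter only through the banded hearts. The filter thus favoured its place among the higher and separate genes, which adds no support. COL9A2 stood at 16.89, 15.31 and 19.16 RPKM in OFT-banded hearts 6, 11 and 17, against 12.24, 14.39 and 13.68 RPKM in sham hearts 38, 48 and 42, and SNORC at 1.22, 2.42 and 1.75 RPKM in the OFT-banded hearts, against 0.81, 0.79 and 0.83 RPKM in the sham hearts (limma gave both an adjusted p of 0.543). COL2A1, the main cartilage collagen and a direct target of SOX9, went the other way by value, at 81.0 ± 17.7 RPKM in OFT-banded hearts and 102 ± 14.8 RPKM in sham hearts (SD, n = 3 each). Of 13 tested genes of cushion and valve mesenchyme, 8 were higher and 5 lower by value, beside the same 36.8% higher among all. SCX, a factor of tendon and valve progenitors, was separate and higher, at 8.68, 7.45 and 7.84 RPKM in OFT-banded hearts 6, 11 and 17, against 7.44, 4.05 and 4.80 RPKM in sham hearts 38, 48 and 42 (adjusted p = 0.543 from limma), and its groups overlapped after median-ratio scaling. On the TPM scale the groups of RHOB, EDNRA, SPRY2 and CALD1 overlapped as well.

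**Figure D5:**
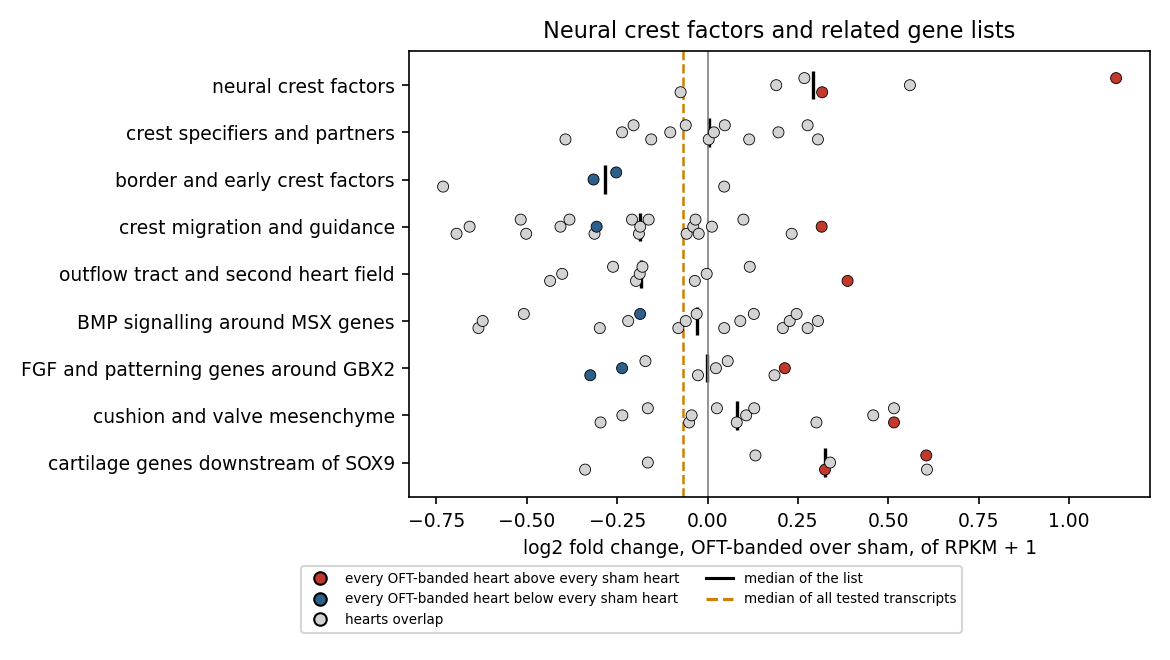
Log2 fold changes (OFT-banded over sham, RPKM + 1) of the tested genes among the neural crest factors and in 8 related lists, 1 point per transcript, coloured where the groups do not overlap, with the median of each list (black bar) and of all tested transcripts (dashed). GBX2, at 1.13, lies above every other point shown. No point had an adjusted p under 0.05.

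Markers of some other cell types differed between the groups by value, while those of others overlapped. Their part in the values above was not tested beyond the fit named here. Of 12 tested red blood cell genes 11 were lower by value in OFT-banded hearts, beside 63.2% of all tested transcripts, with a median log2 fold change of -1.13. The summed level of the whole list ran from 6295 to 12392 RPKM in OFT-banded hearts and from 16506 to 42034 RPKM in sham hearts. Nearly all of it came from the globin genes HBE and HBG1. Since the libraries were made after globin depletion, this sum does not measure red cell content. The tested genes of the list other than globins were also lower by value, except CA2. SLC4A1 was at 24.5 ± 14.9 RPKM in OFT-banded hearts and 109 ± 88.5 RPKM in sham hearts (SD, n = 3 each), with overlap. Among these genes only GFI1B was separate, and it passed the filter only through the sham hearts. The cause of these differences was not tested. Cardiomyocyte genes summed to 73049 to 78801 RPKM in OFT-banded hearts and 52906 to 67595 RPKM in sham hearts, with no overlap. This sum rests on a few very high genes, MYL2 and ACTC1 above all. Beside 36.8% higher among all tested transcripts, 8 of the 12 tested cardiomyocyte genes were higher and 4 lower by value. After median-ratio scaling 9 were higher and 3 lower by value, beside 48.8% higher among all, and 3 of the 12 were separate and higher. On the TPM scale 1 was separate and higher. None of the 12 was separate by itself on the RPKM scale. Among them NPPA, the atrial natriuretic peptide, stood at 2038, 3662 and 7027 RPKM in OFT-banded hearts 6, 11 and 17, against 2053, 1916 and 1124 RPKM in sham hearts 38, 48 and 42, overlapping through banded heart 6 (log2 fold change 1.19, adjusted p = 0.543 from limma). With the mean of the 12 tested red blood cell genes as a covariate, the log2 fold change of GBX2 was 1.03 (adjusted p = 0.676 from limma), that of TWIST1 0.30, that of ETS1 0.46, that of SOX9 0.45, that of MSX2 0.076 and that of MSX1 -0.36. This covariate differs between the groups and can take away part of a difference between them. The summed level of the endothelial list ran from 520 to 564 RPKM in OFT-banded hearts and from 469 to 603 RPKM in sham hearts, and that of the epicardial list from 297 to 376 RPKM and from 279 to 389.6 RPKM (OFT-banded and sham hearts). Of 13 tested endothelial genes 6 were higher and 7 lower by value. Separate and higher were 2 of them, ELK3 and EGFL7, and the groups of EGFL7 overlapped on the TPM scale. For smooth muscle the sums were 275 to 405 RPKM in OFT-banded hearts and 240 to 281 RPKM in sham hearts, which overlapped. Of its 5 tested genes 3 were higher by value, CALD1 among them as the only separate one. The other 2, MYH11 and MYOCD, were lower by value (log2 fold changes -0.21 and -0.27). Genes of the pharynx, neural tube and gut, which could enter with tissue around the heart, summed to 36.4 to 46.8 RPKM in OFT-banded hearts and 32.2 to 53.8 RPKM in sham hearts. NKX2-1 was listed at 0 throughout, but the 3 tested genes of this list were present and held most of these sums. Over the 6 hearts CDH1 was at 10 to 14 RPKM, EPCAM at 12.66 to 18.59 RPKM and KRT14 at 7.43 to 23.47 RPKM. Whether they came from tissue around the heart was not tested. HINTW, a W-linked gene, was found in every heart, at 743 RPKM or more, while ENS-1 and ERNI were separate and lower, at 2.23 ± 0.122 and 1.94 ± 0.311 RPKM in OFT-banded hearts, against 5.45 ± 1.51 and 3.98 ± 0.752 RPKM in sham hearts (SD, n = 3 each). Separate and lower transcripts made up 11% of all tested, and separate and higher ones 5.23%.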

How the data were processed

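Per the paper's methods and the labels, the authors trimmed paired-end reads of strand-specific libraries with scythe and sickle, aligned them to galGal4 with TopHat, kept unique alignments, counted with HTSeq and deposited RPKM values, 1 per RefSeq transcript and heart. Versions are not given in the sources used here. Columns name the group of a heart and a number absent from the labels, so hearts were mapped to groups only. RPKM values are not counts, and transcript lengths were not at hand, so no count test was run.

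RPKM was transformed to log2(RPKM + 1), rows with a mean under 1 were left out of tests, and groups were compared with limma 3.58.1 (R 4.3.3, intensity trend, Benjamini-Hochberg over all tested rows at 0.05). The fit was tested on simulated data. Exact permutation tests used scipy 1.17.1 in Python 3.11.15. Depth came from the steps of microRNA rows, in which at least 97.4% of values came to a whole read, to within 0.1; errors and floors cover counting only. Lists were matched by name, and PDGFRA and SNORC by RefSeq accession (assembly GRCg7b, used for names and gene spans only).

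The factors and the lists were chosen with earlier results of these data known. Named in the lists are up to 4 tested genes per list with no overlap between groups, smallest p first, the 2 highest, the 5 transcripts nearest to GBX2, the 3 nearest to each other tested factor, and TNNT2, ACTC1, SOX10, FOXD3, ENS-1 and ERNI as checks; not all are printed. Near relatives of the factors (TWIST2, SNAI1, SOX8, TFAP2B, TFAP2D, ETS2, FLI1, ERG) were named after their values were seen. The same holds for NPPA, EDNRB, PAX3, PAX5, PAX7, ZIC1, OTX2, EN2, FGF8, NKX2-1, CDH1, ATP2A2, PDGFRA, NRP2 and TBX20. The alternatives changed the pseudocount (0.1), the filter (none, or a mean of 5 RPKM), the scaling (TPM, median ratios, or without globin genes) and limma's moderation (robust, or with no trend), added a red blood cell covariate, or left out each heart in turn; removal of the gene-span trend, the order of levels and the separation of listed genes under TPM and median-ratio scaling, and the ratios to single factors with a pseudocount of 0.1, were added after seeing the data.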

Additional observations from a re-analysis of the deposited data

How the results depend on the processing

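The log2 fold change of GBX2 stayed positive under all 16 alternatives, between 0.94 (without sham heart 42) and 1.28 (without sham heart 48), with adjusted p-values of 0.328 to 0.985 from limma, and no factor passed the adjusted threshold under any of them. The changes of filter and of limma's moderation do not alter a fold change. Leaving out 1 heart could not turn GBX2 negative, since every banded heart lay above every sham heart. Under these alternatives its positive sign was fixed in advance. TWIST1 ran from 0.20 to 0.39 and had an unadjusted p under 0.05 from limma in 3 of the 16, ETS1 from 0.18 to 0.46 in 4 of the 16, and MSX2 from 0.06 to 0.29 in none. SOX9, which the filter at a mean of 5 RPKM left out, ran from 0.32 to 0.80 and had such a p in 1 of 15. MSX1 turned upward without banded heart 17 (0.012) and without sham heart 38 (0.067). Over all transcripts 405 had an unadjusted p under 0.05 from limma, and leaving out 1 heart gave 195 (without sham heart 42) to 649 (without sham heart 38). Of those 405, 38.3% were higher in OFT-banded hearts. Other settings made their own calls, which were not the same transcripts throughout. Of these calls, 56.9% of 406 were higher with median-ratio scaling and 57.4% of 291 with the red blood cell covariate. The share was 55.7% of 413 with the gene-span trend removed and 25.6% of 457 with globin genes left out. The excess of GBX2 over the other factors within a heart ran from 0.67 to 1.12 when 1 heart was left out. With a pseudocount of 0.1, 3 of the 5 transcripts nearest to GBX2 were shared. No paired analysis was possible because the columns carry none of the replicate numbers of the labels. Depth limits TFAP2A and SOX10, which stood at a few reads per kilobase.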
